A study of Mus musculus with 6 samples.

Results

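The ephrin, SLIT-ROBO and netrin guidance genes were examined in the brains of mouse embryos with and without BAHD1, a scaffold protein of chromatin-repressive complexes. The set was taken as every gene of the deposited count table whose symbol was one of 37 named genes, and all 37 were found among the 53801 genes of the table. It held 9 EphA and 5 EphB receptors, 5 ephrin-A and 3 ephrin-B ligands, 3 SLIT ligands, 4 ROBO receptors, 2 netrins with draxin, and 5 receptors of the DCC and UNC5 families. RNA came from the whole brain of C57BL/6 embryos at stage E16.5, 3 Bahd1-KO embryos (Bahd1-/-) and 3 Bahd1-WT embryos with both copies of the gene, all from matings of heterozygous parents. The knockout is constitutive, so BAHD1 was missing from every tissue of the embryo and not from the brain alone. The question was whether brain genes change before birth when BAHD1 is absent.

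Growing axons and migrating neurons read these proteins as signposts. Ephrins are bound to the cell surface and act on Eph receptor kinases at cell contacts, with signals running in both directions; ephrin-A ligands are tethered by a lipid anchor and ephrin-B ligands span the membrane. SLIT proteins are secreted repellents for ROBO receptors, and netrin-1 attracts axons through DCC and repels them through UNC5 receptors, while draxin is a secreted protein that binds netrin-1 and DCC. In the fetal forebrain these systems guide the corticothalamic, callosal and corticospinal tracts, and several of the same proteins also shape blood vessels and epithelia.

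The 6 libraries held 61.7 to 91.8 units of 1e6 counts. Bahd1 itself was at 2, 10 and 6 counts in Bahd1-KO replicates 1, 2 and 3 and at 1971, 3102 and 3470 counts in Bahd1-WT replicates 1, 2 and 3. Its log2 fold change was -8.40 (SE 0.501, edgeR quasi-likelihood adjusted p = 0.0462), and every embryo matched its genotype label. The adjusted p was 0.107 to 0.685 in edgeR when any 1 embryo other than Bahd1-KO replicate 3 was left out, with log2 fold changes from -8.78 to -8.01. One library stood apart: in Bahd1-KO replicate 3, 22.6% of the counts fell in Gm42418, an annotated transcript that overlaps ribosomal RNA, against 0.120 to 0.394% in the other 5 embryos. Protein-coding genes held 53.5% of the counts of Bahd1-KO replicate 3, against 97.8 to 98.4% in the other 5 embryos. Bahd1-KO replicate 1 had Hoxa2, Hoxa3, Hoxb3 and Hoxd3, markers of the hindbrain, at 0 counts, and Bahd1-WT replicate 2 had Hoxd3 at 0. Of 6 cerebellum and rhombic lip markers, Bahd1-KO replicate 1 had Atoh1, Barhl1, En2, Pax2 and Lhx5 at 0, 84, 44, 10 and 158 counts. The Bahd1-WT embryos had 76 to 120, 808 to 1459, 677 to 1315, 141 to 190 and 492 to 1090. The other marker, Zic1, was at 14730 counts, against 16678 to 22169. Results are therefore given with and without Bahd1-KO replicate 3, and Bahd1-KO replicate 1 stays in both comparisons.

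The level of a gene is its CPM, the number of its counts in every 1e6 of the library, where the library's size was scaled by a TMM factor (trimmed mean of M-values). To set genes beside each other, CPM was divided by the length of the gene's merged annotated exons in kb. All 37 members were measured in every embryo, and the lowest value was 21 counts, for Epha1 in Bahd1-KO replicate 1. In Bahd1-WT brains 7 members had a mean level of 20 CPM per kb or more, 7 lay from 10 to 20, 14 from 2 to 10, and 9 under 2. The merged exons of a gene can be longer than any one of its transcripts, so that levels per kb are approximate.

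Among the ephrin ligands, the ephrin-B genes had the highest levels. Efnb3, whose product marks the midline that corticospinal axons must not cross, had the highest level per kb of the whole set, 73.5 ± 9.998 CPM per kb (SD, n = 3 Bahd1-WT embryos). Efnb2, a ligand of neural progenitors and of arteries, followed at 35.0 ± 1.10, and Efnb1, an X-linked ligand, stood at 15.9 ± 6.86 CPM per kb. Of the ephrin-A ligands, Efna2 and Efna3 had 13.8 ± 3.28 and 13.3 ± 2.15 CPM per kb, and Efna5, which patterns retinal and thalamic projections, had 9.19 ± 1.59. Efna4 and Efna1 were low, at 2.61 ± 1.18 and 1.65 ± 0.401 CPM per kb.

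Draxin was the third highest of the 37 genes, at 29.3 ± 5.83 CPM per kb, well above Ntn1, the gene of netrin-1, at 8.80 ± 2.29 CPM per kb. Ntn4, a netrin of basement membranes, had 3.92 ± 0.245 CPM per kb. The SLIT genes were lower than their main receptors. Slit1 had 9.16 ± 2.72, Slit2 had 2.23 ± 0.192 and Slit3 had 1.23 ± 0.495 CPM per kb. Per kb, the order Slit1, Slit2, Slit3 held in each of the 3 Bahd1-WT brains, whose ranges did not overlap between these genes. The order of Slit1 and Slit2 rested on exon length, 5921 and 25433 bases. In CPM, not divided by length, Slit1 had a mean of 54.3 and Slit2 of 56.7. Their Bahd1-WT ranges in CPM, 37.7 to 69.8 and 52.8 to 62.2, overlapped.

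Of the ROBO receptors, Robo2 had 26.8 ± 4.06 and Robo1 had 23.1 ± 2.42 CPM per kb. Robo4, a receptor of blood vessel endothelium, had 1.13 ± 0.309 CPM per kb, and Robo3, which lets commissural axons of the hindbrain and spinal cord cross the midline, had 0.710 ± 0.249. Of the Eph receptors, Epha4, which binds both classes of ephrin, had 25.2 ± 0.926 CPM per kb, Ephb1 had 20.2 ± 2.502 and Ephb2 had 15.4 ± 3.24. Epha5, Epha3 and Epha7 followed at 14.2 ± 2.14, 11.7 ± 0.756 and 11.4 ± 2.39 CPM per kb. Ephb6, which lacks kinase activity, had 7.05 ± 2.62 CPM per kb.

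The remaining Eph receptors were low in Bahd1-WT brains. Epha8, Ephb4, Epha6, Ephb3 and Epha10 had mean levels between 1.35 and 3.62 CPM per kb. Epha2 and Epha1, known mainly from epithelia, had the lowest levels of their family, 0.436 ± 0.183 and 0.113 ± 0.0356 CPM per kb. In the netrin receptor family, Unc5d, a gene of upper-layer cortical neurons, had 9.61 ± 1.76 CPM per kb. Unc5a had 6.28 ± 3.38 and Dcc 5.66 ± 1.18, while Unc5c, a gene of hindbrain and cerebellar neurons, had 3.03 ± 1.13 and Unc5b, a vascular member, 2.28 ± 0.750 CPM per kb.

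**Figure D1:**
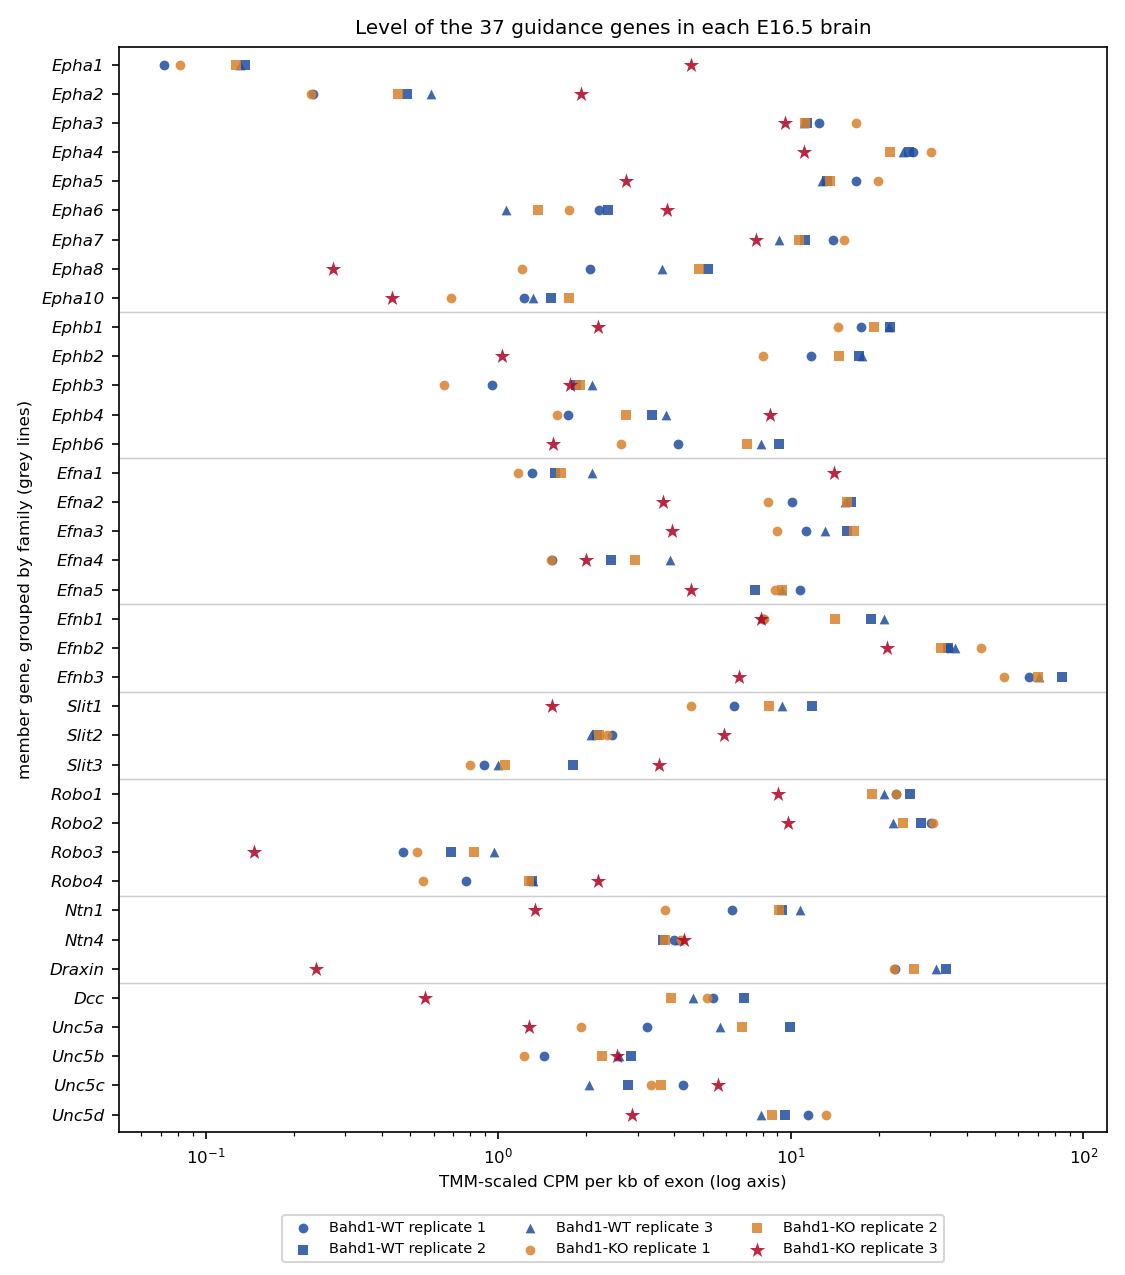
Level of each of the 37 guidance genes in each of the 6 brains, in TMM-scaled CPM per kb of exon on a log axis, with blue symbols for Bahd1-WT, orange for Bahd1-KO replicates 1 and 2, a red star for Bahd1-KO replicate 3, and grey lines between families. The star lies below all other embryos for 24 genes, farthest for Draxin, and above all of them for 10, farthest for Epha1.

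The loss of BAHD1 was not accompanied by a detectable change of any guidance gene. With all 6 embryos, 0 of the 37 members passed the adjusted threshold of 0.05 in the edgeR quasi-likelihood test, against 0.00404% of all 24739 genes tested (Bahd1 alone), and the smallest adjusted p of a member was 0.696. DESeq2, which gave Epha1 and Efna1 no p-value, called 0 of the other 35 members, against 0.0334% of all genes tested. At an unadjusted p under 0.05, 1 of 37 members remained (Epha1), against 4.67% of all genes tested, and DESeq2 had 0, against 5.28%. In none of the 37 members did the embryos of the genotypes separate completely; among all genes tested, 2.24% had every Bahd1-KO embryo lower and 4.47% had every Bahd1-KO embryo higher than every Bahd1-WT embryo.

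By direction, 11 members had a log2 fold change above 0 and 26 below, with a median of -0.27, beside a median of 0.06 over all genes tested. Scaled by total counts, without TMM factors, 7 members were above 0 and 30 below, with medians of -0.40 for the members and -0.11 for all genes. The median SE of a member's log2 fold change was 0.52. In bulk tissue, fewer cells of a type and less RNA per cell cannot be told apart.

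Without Bahd1-KO replicate 3, again 0 members passed the adjusted threshold, against 0.0171% of 23334 genes tested, with 0.981 as the smallest adjusted p of a member. By edgeR 0 of 37 had an unadjusted p under 0.05, against 1.48% of all genes tested. DESeq2 called 0 members at the adjusted threshold, against 0.0471%, and had 0 at an unadjusted p under 0.05, against 0.724%. The log2 fold changes then ran from -0.54 for Ephb6 to 0.24 for Epha3, with 9 members above 0, 28 below and a median of -0.24, beside -0.01 over all genes. The median SE was 0.32, and the embryos of the genotypes overlapped for all 37 members. The EphB receptors (5 of 5), ephrin-A ligands (5 of 5) and netrins with draxin (3 of 3) were all below 0 in this comparison. Some of these values were near 0, among them -0.00040 for Ntn4, -0.025 for Efna5 and -0.068 for Efna3. The EphA receptors were split, 4 above and 5 below. Of all 23334 genes tested, 11857 were below 0. The differences of the members lay within the spread between embryos for each gene.

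The count at an unadjusted p under 0.05 depended on which embryo was left out. It was 10 of 37 without Bahd1-KO replicate 2, against 20.2% of all genes tested, 2 without Bahd1-KO replicate 1, against 10.1%, and 1 without Bahd1-WT replicate 1, against 1.21%. Without Bahd1-WT replicate 2 it was 0, against 0.637%, and without Bahd1-WT replicate 3 it was 0, against 0.701%. Of the 10 members without Bahd1-KO replicate 2, 8 were lower and 2 higher in Bahd1-KO. At the adjusted threshold 0 of them passed, as did 0 of all 24149 genes tested. Both shares, of members and of all genes, were highest without Bahd1-KO replicate 2.

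**Figure D2:**
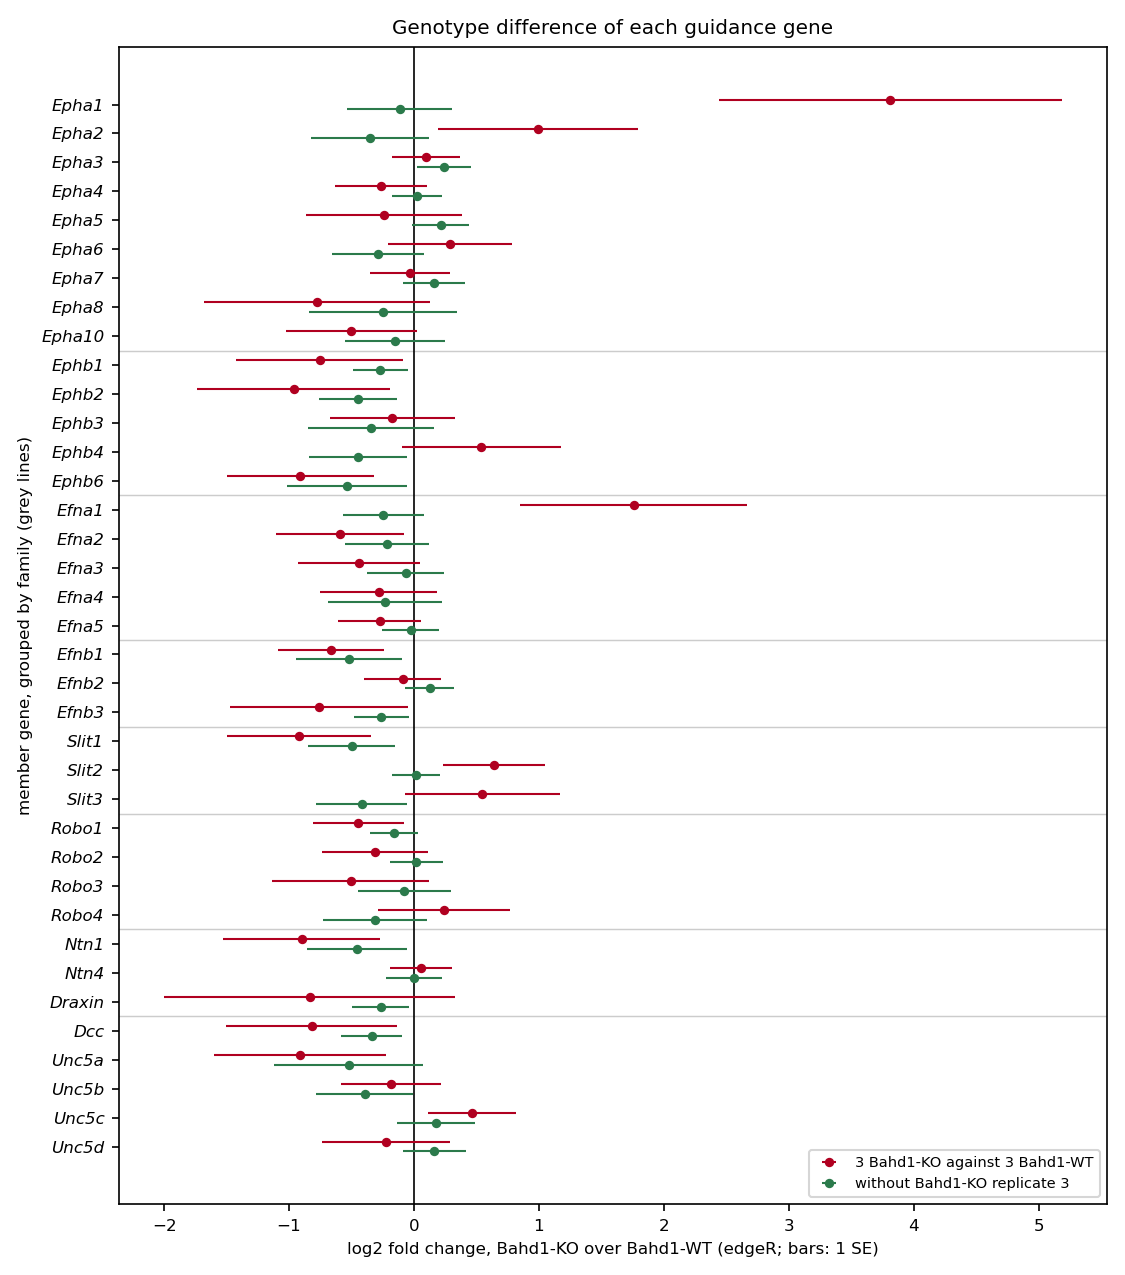
log2 fold change of each guidance gene, Bahd1-KO over Bahd1-WT, from edgeR, with bars of 1 SE, for all 6 embryos (red) and without Bahd1-KO replicate 3 (green). The red values reach 3.81 for Epha1, while the green values lie between -0.54 and 0.24.

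Epha1 (ENSMUSG00000029859, chr6:42358487-42373268, minus strand, GRCm38) was the member with the smallest p. Its level was 0.321, 0.497 and 17.96 CPM in Bahd1-KO replicates 1, 2 and 3 and 0.282, 0.533 and 0.515 CPM in Bahd1-WT replicates 1, 2 and 3. One embryo was high and the other 5 overlapped. The log2 fold change was 3.81 (SE 1.37, edgeR unadjusted p = 0.0399, adjusted p = 0.696), and without Bahd1-KO replicate 3 it was -0.11 (SE 0.421, edgeR unadjusted p = 0.793).

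Bahd1-KO replicate 3 lay apart from the other embryos for most guidance genes. Its level was below that of all other 5 embryos for 24 of 37 members, above for 10 and within their range for 3, while of 14368 genes with a mean of 1 CPM or more in the other 5 embryos, 47.3% were below and 28.7% above. The median log2 ratio of this embryo to the mean of the other 5 was -1.21 over the members and -0.32 over those genes. With counts scaled by library total alone, 26 members were below and 8 above. These are values of 1 embryo, noticed once they had been seen, and carry no test.

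The genes that were low in this embryo included those with high levels in Bahd1-WT brains. Draxin (ENSMUSG00000029005, chr4:148098437-148130698, minus strand) was at 117, 137 and 1.24 CPM in Bahd1-KO replicates 1, 2 and 3 and at 118, 176 and 163 CPM in Bahd1-WT replicates 1, 2 and 3. In counts, that is 67 in Bahd1-KO replicate 3 and 7679 to 16428 in the others, so the level in this embryo was 0.873% of the mean of the other 5. Its log2 fold change of -0.83 (SE 1.17, edgeR adjusted p = 0.812) between the genotypes shrank to -0.27 without the embryo. Draxin was singled out after its values were seen, as were the other members named in this account of the embryo.

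Ephb2, a receptor of callosal and commissural axons, was at 102, 185 and 12.9 CPM in Bahd1-KO replicates 1, 2 and 3 and at 147, 216 and 220.0 CPM in Bahd1-WT. Epha8, a receptor best known from the midbrain, was at 5.68, 22.9 and 1.28 CPM in Bahd1-KO and at 9.70, 24.5 and 17.0 CPM in Bahd1-WT. In both genes Bahd1-KO replicate 3 was the lowest embryo and Bahd1-KO replicate 1 the next lowest. Both genes lie on chromosome 4, 93430 bases apart, at chr4:136647539-136835988 and chr4:136929419-136956816.

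Among the other genes low in this embryo were a ligand, a netrin receptor and the main ROBO receptors. Efnb3 was at 169.9, 223 and 21.2 CPM in Bahd1-KO and at 208, 269 and 225 CPM in Bahd1-WT. Dcc was at 68.2, 51.2 and 7.41 CPM in Bahd1-KO and at 71.6, 91.4 and 60.9 CPM in Bahd1-WT. Robo1 and Robo2 were less far below the others, at 40.5% and 36.0% of the mean of the other 5 embryos. In all, 12 members were at 0.25 times that mean or less and 20 at 0.5 times it or less.

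The 10 genes above all other embryos were Epha1, Epha2, Epha6, Ephb4, Efna1, Slit2, Slit3, Robo4, Ntn4 and Unc5c, and 8 of them were at 2 times the mean of the other 5 or more. Ntn4 was at 1.09 times that mean. With counts scaled by library total alone, Ntn4 was below the other 5 embryos and Unc5c within their range. Efna1 (ENSMUSG00000027954), a ligand of endothelium and epithelia, was at 2.14, 3.00 and 25.6 CPM in Bahd1-KO and at 2.39, 2.86 and 3.83 CPM in Bahd1-WT. Its log2 fold change between the genotypes was 1.76 (SE 0.909, edgeR adjusted p = 0.696) and became -0.24 without Bahd1-KO replicate 3. Epha2, a receptor for Efna1, was 4.82 times the mean of the other 5 in this embryo, and Ephb4, the receptor of veins, was 3.24 times that mean. Slit3 and Slit2 stood at 3.20 and 2.62 times it.

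Members of the same family and place in the genome diverged in this embryo. Robo3 and Robo4 lie 553 bases apart on opposite strands, at chr9:37415669-37433246 and chr9:37401897-37415115. Robo3 was at 20.99% of the mean of the other 5 embryos and Robo4 at 2.098 times it. Efna1, Efna3 and Efna4 lie in a row on chromosome 3, with 32756 bases between the first pair and 10424 between the second. Efna1 was above the other embryos, Efna3 was below them at 30.1% of their mean, and Efna4 was within their range.

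Marker lists moved in the same embryo. Summed over 9 forebrain markers, Bahd1-KO replicate 3 had 92.3 CPM and the other 5 embryos 1065 to 1566, with 9 of 9 markers below all other embryos. The neuron list summed to 2341 CPM against 8038 to 10068, with 5 of 8 markers below and 1, Snap25, above. Endothelial markers summed to 925 CPM against 249.3 to 315, with 8 of 9 above. In this embryo no marker of these lists was at 0.

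Lists for tissues outside the brain were higher too. Markers of meninges and connective tissue summed to 2061 CPM against 295 to 411, with 5 of 6 above the other embryos, markers of lung epithelium to 1083 CPM against 0.198 to 11.1, with 5 of 5 above, and markers of skeletal muscle to 82.0 CPM against 2.40 to 12.01, with 7 of 7 above. The 11.1 CPM of lung markers was the sum in Bahd1-KO replicate 2, which stays in the comparison without Bahd1-KO replicate 3. In counts, Bahd1-KO replicate 2 had Scgb1a1 at 511 and Sftpc at 225. The Bahd1-WT embryos had 13 to 15 and 0 to 11. Hindbrain markers summed to 59.5 CPM against 0.351 to 10.9. In Bahd1-WT brains the lists summed to 249.3 to 315 CPM for endothelium, 1065 to 1285 for forebrain, 8038 to 10068 for neurons, 295 to 411 for meninges and connective tissue, 0.282 to 0.465 for lung epithelium and 4.06 to 12.01 for skeletal muscle, and in Bahd1-KO brains to 260.0 to 925, 92.3 to 1566, 2341 to 9392, 316 to 2061, 0.198 to 1083 and 2.40 to 82.0. Their part in the levels of the guidance genes was not tested.

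**Figure D3:**
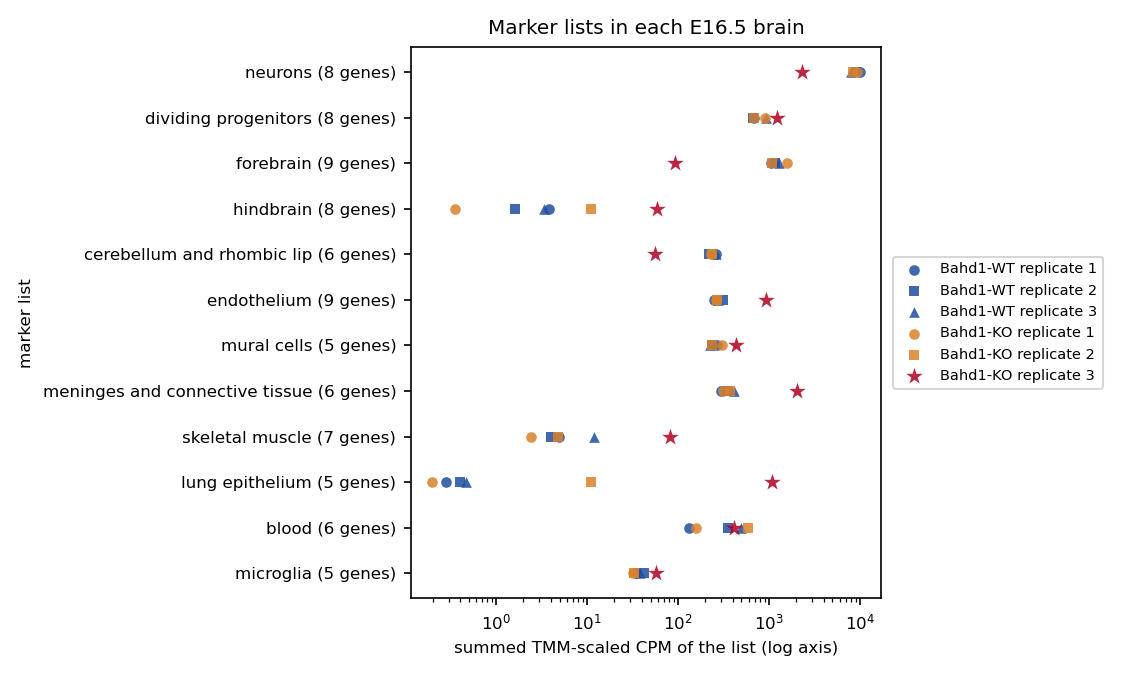
Summed level of each marker list in each of the 6 brains, in TMM-scaled CPM on a log axis, with blue symbols for Bahd1-WT, orange for Bahd1-KO replicates 1 and 2 and a red star for Bahd1-KO replicate 3. The star lies below the other embryos for neurons, forebrain and cerebellum, and above them for endothelium, meninges and connective tissue, skeletal muscle and lung epithelium. Of the 6 markers of cerebellum and rhombic lip, only 3 were below all other embryos in Bahd1-KO replicate 3. For the other 3, Atoh1, En2 and Pax2, Bahd1-KO replicate 1 was the lowest embryo.

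Promoter sequences were compared between genes from both ends of this range. The 200 bases upstream of the start are given for Draxin (chr4:148130699-148130898, minus strand) and Epha8 (chr4:136956817-136957016, minus strand), both low in Bahd1-KO replicate 3, and for Epha1 (chr6:42373269-42373468, minus strand) and Ephb4 (chr5:137349909-137350108, plus strand), both high in it, from RefSeq on GRCm38.p6, 5′ to 3′ along the gene, with CG dinucleotides in capitals.

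Draxin: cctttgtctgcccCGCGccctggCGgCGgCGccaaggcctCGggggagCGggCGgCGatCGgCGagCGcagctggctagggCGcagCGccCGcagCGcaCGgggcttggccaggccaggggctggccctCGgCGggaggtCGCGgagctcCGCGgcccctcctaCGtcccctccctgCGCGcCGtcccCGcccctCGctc

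Epha8: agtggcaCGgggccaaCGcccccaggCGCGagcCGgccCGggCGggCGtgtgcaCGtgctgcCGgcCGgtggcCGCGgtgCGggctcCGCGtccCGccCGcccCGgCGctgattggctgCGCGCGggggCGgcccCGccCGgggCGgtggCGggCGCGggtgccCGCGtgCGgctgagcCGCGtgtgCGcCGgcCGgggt

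Epha1: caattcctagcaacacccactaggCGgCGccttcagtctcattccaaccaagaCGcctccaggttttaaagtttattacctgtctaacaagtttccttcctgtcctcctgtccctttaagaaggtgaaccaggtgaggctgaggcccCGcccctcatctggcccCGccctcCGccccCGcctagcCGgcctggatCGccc

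Ephb4: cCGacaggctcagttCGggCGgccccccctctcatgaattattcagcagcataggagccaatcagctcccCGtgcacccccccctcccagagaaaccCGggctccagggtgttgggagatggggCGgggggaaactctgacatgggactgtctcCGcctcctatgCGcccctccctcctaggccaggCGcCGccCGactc

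CG dinucleotides, the sites of DNA methylation in mammals, numbered 29 in the Draxin sequence, 38 in that of Epha8, 9 in that of Epha1 and 11 in that of Ephb4. Over 32851 RefSeq promoters the median was 5 per 200 bases, and 89.4% held at least 1. Of the 37 members, 32 had an entry, with a median of 15 and a range from 2 to 38 (the first entry was used where a gene had several); Efnb3, Slit1, Ntn1, Dcc and Unc5d had none. The 19 entries of members below the other embryos in Bahd1-KO replicate 3 had a median of 16 and the 10 of members above a median of 14, with ranges of 6 to 38 and 2 to 32 that overlapped, so the contrast of the 4 printed sequences was not one between the groups. The GC box (GGGCGG on either strand) was found in 23 of 32 member promoters and in 31.0% of all promoters, counting overlapping matches.

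A second pattern ran through the guidance genes within each genotype. Both embryos numbered 1 were lower than Bahd1-KO replicate 2 and Bahd1-WT replicates 2 and 3 for 23 of 37 members, and higher than those 3 for 7. Of the genes at 1 CPM or more, 36.0% were lower and 30.8% higher. All 5 EphB receptors were among the members that were lower, with Ephb3 at 4.33 and 6.31 CPM in Bahd1-KO and Bahd1-WT replicates 1 and at 12.6, 12.2 and 13.8 CPM in the other 3 embryos. Among the EphA receptors 4 were lower and 4 (Epha3, Epha4, Epha5 and Epha7) were higher.

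The direction went with base composition. The 18 members with the highest GC content in their transcripts (55.3 to 62.7%) were all lower in the embryos numbered 1, with a median log2 ratio of -0.95, and the 19 with lower GC content (40.1 to 55.2%) had a median of 0.16, with 5 lower and 7 higher. Across the 37 members, the log2 ratio of Bahd1-WT replicate 1 to the mean of Bahd1-WT replicates 2 and 3 had a Pearson correlation of -0.88 with GC content (Spearman -0.84), and that of Bahd1-KO replicate 1 to replicate 2 one of -0.89 (Spearman -0.88). Over 14353 genes the Pearson correlations were -0.77 and -0.75. Genes of 1 library share its preparation and depth and are not independent, so these values describe the libraries.

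**Figure D4:**
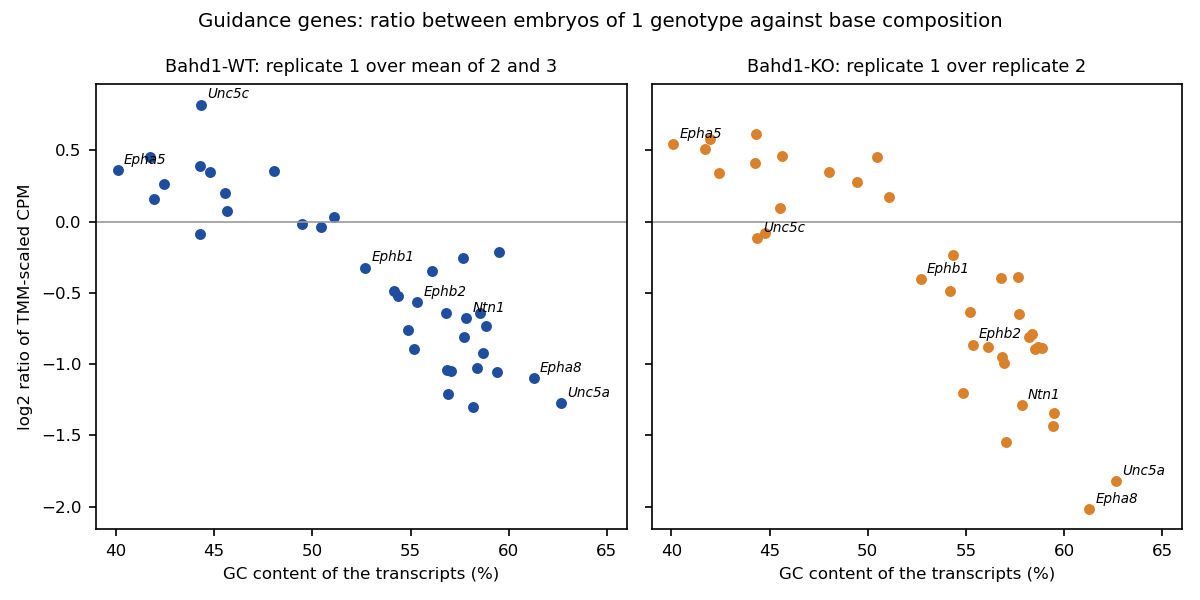
log2 ratio of TMM-scaled CPM between embryos of 1 genotype against the GC content of the transcripts (%) for the 37 guidance genes, 1 point per gene, with Bahd1-WT at left and Bahd1-KO at right. In both panels genes of low GC such as Epha5 lie above 0 and genes of high GC such as Epha8 and Unc5a lie below it. Epha8 and Unc5a lie lowest in the Bahd1-KO panel. In the Bahd1-WT panel Efnb1 (-1.30) and Unc5a (-1.27) lie lowest, with Epha8 at -1.10.

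Unc5a and Epha8, the members with the highest GC content, show the size of this pattern. Unc5a, a repulsive netrin receptor, was at 8.01 and 13.5 CPM in Bahd1-KO and Bahd1-WT replicates 1 and at 28.3, 41.3 and 23.8 CPM in Bahd1-KO replicate 2 and Bahd1-WT replicates 2 and 3. The embryos numbered 1 were the lowest of these 5 in both genotypes. Without Bahd1-KO replicate 3, 1 of the 2 Bahd1-KO embryos and 1 of the 3 Bahd1-WT embryos carried the number 1.

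The same division by GC content was seen between the genotypes. Without Bahd1-KO replicate 3, 18 of 18 members of high GC were lower in Bahd1-KO (median log2 fold change -0.37), and 10 of 19 of low GC (median -0.00040). With each embryo corrected for GC content, 9 of 18 and 12 of 19 were lower, with medians of 0.0022 and -0.035, and the median of all 37 members moved from -0.24 to -0.02. Between embryos of the same number, 25 of 37 members were lower in Bahd1-KO replicate 1 than in Bahd1-WT replicate 1, with a median log2 ratio of -0.16, and 26 of 37 in Bahd1-KO replicate 2 than in Bahd1-WT replicate 2, with a median of -0.10. With the correction, 0 of 37 members passed the adjusted threshold of edgeR, against 0.0257% of all genes tested, and 1, Dcc, had an unadjusted p under 0.05 (log2 fold change -0.49), against 2.28%.

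The wider pathway, 70 further genes for other ligands, co-receptors and the signalling proteins downstream, was measured as well. With all 6 embryos 0 of 70 passed the adjusted threshold and 1 had an unadjusted p under 0.05, Arhgef16, beside the 4.67% of all genes given above. Log2 fold changes were above 0 for 19 and below for 51, with a median of -0.22 that was -0.08 without Bahd1-KO replicate 3. The Bahd1-KO embryos were all lower than the Bahd1-WT embryos for 3 (Trio, Kalrn and Itsn1) and all higher for 1 (Tiam1), against the 2.24% and 4.47% of all genes given above; these 4 are named because their values were seen. In Bahd1-KO replicate 3, 46 of the 70 were below all others and 18 above, beside the shares of genes at 1 CPM or more given above for this embryo. Of the 10 other netrin, netrin-G and RGM genes with their receptors, 0 were above 0 and 10 below with all embryos, and 2 above and 8 below without Bahd1-KO replicate 3. Of the 18 effectors of Eph and ephrin signalling, 10 were above 0 and 8 below with all embryos, and 5 above and 13 below without that embryo.

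Arhgef16 was at 0.626, 1.60 and 3.17 CPM in Bahd1-KO and at 0.418, 0.828 and 0.594 CPM in Bahd1-WT (log2 fold change 1.55, SE 0.640, edgeR adjusted p = 0.696). Prrg4 was at 1.31, 0.853 and 6.04 CPM in Bahd1-KO and at 1.33, 0.953 and 0.693 CPM in Bahd1-WT. Abl1, a kinase downstream of ROBO, was at 45.3, 71.0 and 42.3 CPM in Bahd1-KO and at 55.7, 96.0 and 94.0 CPM in Bahd1-WT, and Src, a kinase downstream of DCC, at 38.3, 83.7 and 31.9 CPM and at 59.6, 98.0 and 113 CPM. The genotypes overlapped for all 4 genes, which had the smallest p-values of their direction.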

How the data were processed

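Each value of the deposited table was a raw read count per gene, with 1 column per embryo. The authors' methods describe stranded libraries of polyadenylated RNA, sequenced in technical runs, and counting over Ensembl gene exons of GRCm38. The submitters' processing notes name cutadapt 1.11, STAR 2.5.0a, featureCounts 1.4.6-p3 and DESeq2 1.20.0. Genes reaching 10 counts over the embryos entered the edgeR 4.0.16 quasi-likelihood test (R 4.3.3), two-sided, with TMM factors, genotype as the single term and Benjamini-Hochberg adjustment over all genes. Exon lengths, GC content and positions came from GENCODE M21. Counting used strand, so that Robo3 and Robo4, on opposite strands, stay apart. A symbol with 2 gene IDs was taken at the one with more counts, and Ntn3 had no entry.

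The members and all lists were chosen with earlier results of these data known. The rule gave fold changes for Bahd1 and for members with no overlap between genotypes or an unadjusted p under 0.05, and named the 2 further pathway genes with the smallest p in each direction. The deviations of same-numbered embryos from their genotype means had correlations of 0.12, 0.18 and -0.09 over 24739 genes for numbers 1, 2 and 3. The Bahd1-KO mean included replicate 3, which lay apart, so these values cannot decide whether the numbers mark pairs. Both embryos numbered 1 shared the pattern by GC content given above. The main test did not take the numbers as pairs, and the replicate block was an alternative. Alternatives covered the filter, the scaling, DESeq2 1.42.0, voom with quality weights from limma 3.58.1, a replicate block, a GC correction by lowess with a span of 0.3, RNA classes and each embryo left out.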

Additional observations from a re-analysis of the deposited data

How the results depend on the processing

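Called members (0 of 37) and called further pathway genes (0 of 70) stayed at 0 under all 19 alternatives. Of these, 4 were chosen after seeing the data (the GC correction, and the GC correction, the replicate block or DESeq2 with Bahd1-KO replicate 3 left out). With the replicate block on all 6 embryos, 0 of all genes tested were called. The same held with ribosomal, mitochondrial and small RNA genes left out. In these 2 fits a 0 for members therefore carried no information. With each embryo left out in turn, called members and called pathway genes were 0 each time. Of all genes tested, 4 were called without Bahd1-KO replicate 3 and 0 without any 1 of the other embryos. Those latter fits called nothing, not even Bahd1, so they could not show whether members change. Members at an unadjusted p under 0.05 ranged from 0 to 10, and the members' median log2 fold change from -0.47 to -0.24. The number of members at an unadjusted p under 0.05, 1 in the report, was 0 by DESeq2, which gave Epha1 and Efna1 no p-value, and also 0 by DESeq2 without Bahd1-KO replicate 3, 6 by voom with quality weights (all 6 lower in Bahd1-KO, 16.2% of members against 8.95% of all genes) and 10 with the replicate block in the 5 embryos other than Bahd1-KO replicate 3 (all 10 lower in Bahd1-KO, 27.0% of members against 9.30% of all genes). The median of -0.27 ranged from -0.48 with quality weights to -0.02 with the GC correction without Bahd1-KO replicate 3. These moves were less than the spread between embryos (0.44). That spread included Bahd1-KO replicate 3 and was larger than the median itself, so it could not mark a vanished median as moved. With the replicate block on all 6 embryos the median was -0.46, with 0 members and 0 of all genes called. At an unadjusted p under 0.05 there was 1 member, against 2.09% of all genes.

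Leaving embryos out moved the log2 fold change of Epha1 between -0.11 and 4.38, that of Efna1 between -0.24 and 2.24, that of Draxin between -1.40 and -0.27 and that of Bahd1 between -8.78 and -8.01. Epha1 changed sign with quality weights (-0.057) and by DESeq2 without Bahd1-KO replicate 3 (-0.12). Efna1 changed sign with quality weights (-0.13) and, without Bahd1-KO replicate 3, by DESeq2 (-0.25), with the replicate block (-0.061) and with the GC correction (-0.0037). Draxin (0.0080, GC correction) and Prrg4 (-0.10, replicate block) changed sign without Bahd1-KO replicate 3. Bahd1 kept its direction and missed the adjusted threshold with the replicate block (edgeR adjusted p = 0.229), with ribosomal, mitochondrial and small RNA genes left out (edgeR adjusted p = 0.0541) and without any 1 embryo other than Bahd1-KO replicate 3 (edgeR adjusted p from 0.107 to 0.685). The cause of these shifts was not tested.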
